A study of Mus musculus with 4 samples.

Results

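Follicular regulatory T cells (TFR cells) were compared with the other regulatory T cells (Treg cells) of mice with a Treg-directed deletion of Prdm1. The comparison is 1 TFR array minus 1 non-TFR array, in log2 units, across 22180 genes out of the 22180 that a probe with a single gene symbol measured. It uses 2 of the series' 4 samples. A gene with several probes was read from its brightest one.

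Both knockout samples came from Prdm1fl/flFoxP3YFP-Cre mice, in which the loxP-flanked Prdm1 alleles are cut by a Cre recombinase fused to YFP and expressed from the FoxP3 gene, so the deletion is confined to cells that have expressed FoxP3. The control samples, called WT in the labels, came from FoxP3YFP-Cre mice, which carry the same Cre-YFP allele with Prdm1 intact. Mice of both genotypes had received NP-OVA, a hapten-coupled protein antigen, in CFA (complete Freund's adjuvant) 7 days earlier. TFR cells were sorted as CD4+ YFP+ cells positive for both CXCR5 and PD1, and non-TFR cells as CD4+ YFP+ cells negative for CXCR5. The gate therefore fixes a difference in Cxcr5 and, on the TFR side, in Pdcd1, the gene of PD1. The age and sex of the mice, their number, whether animals were pooled and the organ sorted were not stated in the labels.

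Treg cells restrain immune responses through the transcription factor Foxp3. Some of them take up the Bcl6-driven programme of follicular helper T cells, gain CXCR5, lose CCR7 and enter the B cell follicle, where they restrain the germinal centre response. Blimp-1, the product of Prdm1, and Bcl6 repress each other's genes, and Blimp-1 supports Il10 and granzyme B expression in effector Treg cells. The comparison asks what sets TFR cells apart from other Treg cells when Prdm1 is targeted for deletion in both.

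Each group is a single array, so no difference below has a replicate check and none was tested. The counts describe these arrays only. In a sorted population, moreover, a lower value can come from fewer cells that express a gene or from less RNA per cell, and the arrays cannot tell these apart. A gene was called expressed when its mean level over the 4 arrays was above 5.91, the median of all genes. A fold is given only where both knockout arrays were above that limit. Where an array was below it, the difference is that of the measured values and its size is uncertain.

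The arrays fit the sorted cell type. The T cell receptor chain genes Cd3d, Cd3e and Cd3g lay between 12.74 and 13.04 in all 4 arrays. Cd4 was at 11.33 in knockout TFR and 11.29 in knockout non-TFR cells, a difference of 0.04. The gate's own genes differed in the direction of the gate. Cxcr5, the receptor for the follicular chemokine, was at 10.39 in knockout TFR and 8.90 in knockout non-TFR cells, 2.81-fold higher. Pdcd1 was at 10.68 and 8.96, 3.29-fold higher. Prdm1 was at 7.32 in knockout TFR, 7.59 in knockout non-TFR, 8.21 in control TFR and 7.80 in control non-TFR cells, so both knockout arrays were below both control arrays. Which exons its probe reads is not given, so a remaining signal says nothing of how complete the deletion was. The X-linked Xist was at 11.44 in knockout TFR and 10.19 in knockout non-TFR cells, and the Y-linked Kdm5d at 7.35 and 7.42, genes looked at after the other values were seen.

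Of 11090 expressed genes, 336 were higher by 2-fold or more on the TFR side of the knockout pair (3.03%) and 152 were lower by as much (1.37%). Both knockout arrays were above the limit for 261 of the 336 and 116 of the 152, and the others passed the filter on the mean through the arrays where they were high. Over all 22180 genes these counts were 494 (2.23%) and 262 (1.18%), and the median difference was -0.0001. These shares are the background for the list counts below, as lists hold measured genes whether or not they were expressed. The middle 95% of expressed genes lay between -0.82 and 1.09. Differences past 4-fold numbered 54 higher and 5 lower. On the deposited values without further normalization the expressed genes split into 443 higher and 103 lower, 81.1% higher against 68.9% here, and the median of all genes then stood at 0.12. Cell cycle genes took 105 of the 336, and the other 231 were in no cell cycle list. The expressed gene just past the limit was at 1.0042 and the one just short of it at 0.9964.

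**Figure D1:**
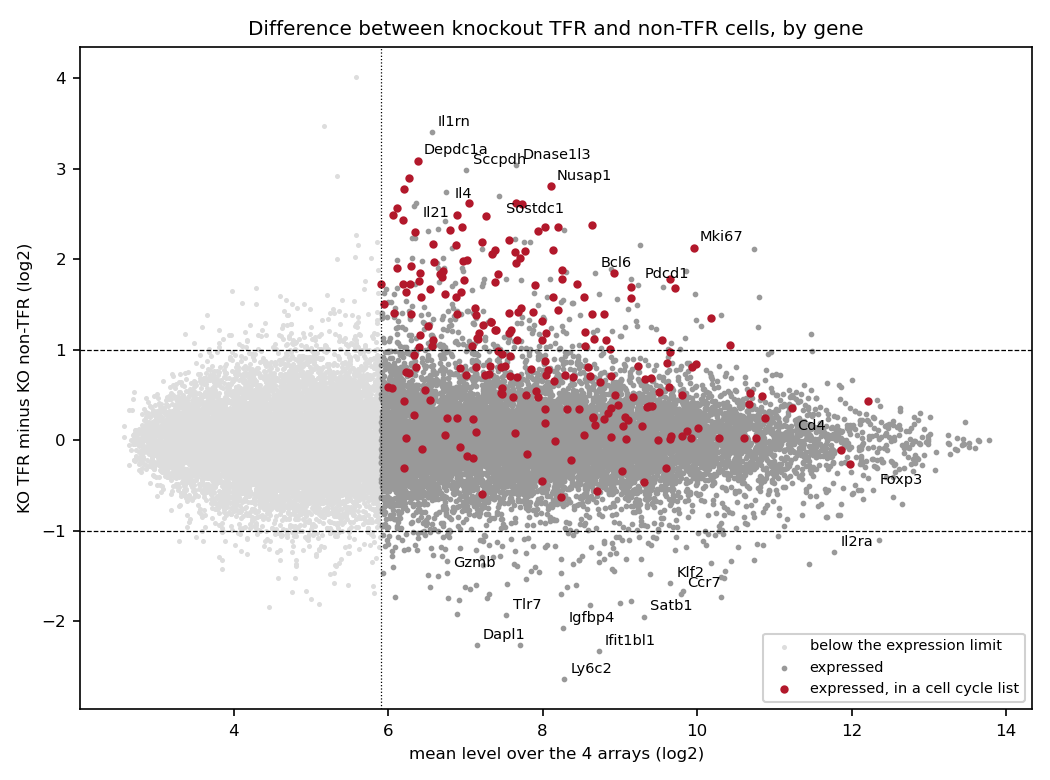
Each point is 1 gene, with its mean log2 level over the 4 arrays on the horizontal axis and the KO TFR minus KO non-TFR difference (log2) on the vertical axis. Dashed lines mark a 2-fold difference, the dotted line the expression limit of 5.91, and red points the expressed genes of the cell cycle lists, which lie mostly above 0 (216 of 236 measured cell cycle genes were higher).

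Most members of both follicular lists, the transcription factors and the surface and secreted products, were higher in knockout TFR cells. Like all gene lists here, these were written with earlier results of these data known. Their counts therefore describe the arrays and are not independent support for a follicular programme. Of 17 measured follicular transcription factors, 13 were higher, 6 of them by 2-fold or more, against 2.23% of all genes. Just 1 was 2-fold lower, and the median difference was 0.31. Bcl6, the repressor that specifies follicular helper and TFR cells, was at 9.94 in knockout TFR, 8.10 in knockout non-TFR, 8.82 in control TFR and 7.84 in control non-TFR cells, a 3.59-fold knockout difference. The knockout TFR array was the highest of the 4 for this gene. Maf, which drives Il21 and Il4 transcription in helper T cells, was at 10.71 and 9.02 in the knockout pair, 3.22-fold higher by its brightest probe, while its second probe gave a difference of 1.37. Tox2 was at 9.38 and 7.84, 2.92-fold higher. Pou2af1, the octamer coactivator OBF1, was at 8.001 and 6.71, 2.45-fold higher. Ascl2, which can start Cxcr5 expression, was at 7.00 in knockout TFR and 5.75 in knockout non-TFR cells, the latter under the expression limit, a difference of 1.24. Cebpa, a factor better known from myeloid cells, was at 9.04 in knockout TFR, 7.69 in knockout non-TFR, 7.80 in control TFR and 6.40 in control non-TFR cells, 2.56-fold higher in the knockout pair. Batf, a partner of Irf4, differed by 0.85 and Tox by 0.38. These were higher on the TFR side but short of 2-fold.

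Among 22 measured follicular receptors and secreted factors, 18 were higher, 7 of them by 2-fold or more, while none was 2-fold lower. Their median was 0.64, and the list leaves out Cxcr5 and Pdcd1, on which the cells were sorted. Il4 and Il21 are the cytokines by which follicular helper cells drive B cell class switching and plasma cell formation. Il4 was at 8.63 in knockout TFR, 5.88 in knockout non-TFR, 7.11 in control TFR and 5.41 in control non-TFR cells. Il21 was at 8.004, 5.42, 6.59 and 5.34 in the same order. For both, only the TFR arrays were above the expression limit, and the knockout TFR array was the highest. Il1rn, which encodes the interleukin-1 receptor antagonist, was at 8.44 in knockout TFR, 5.04 in knockout non-TFR, 7.53 in control TFR and 5.26 in control non-TFR cells, so that both non-TFR arrays were below the limit. Il1r2, the decoy receptor for interleukin-1, was at 11.73, 10.11, 10.70 and 7.35, and the knockout difference was 3.08-fold. Il1r1, the signalling receptor, was at 6.34 in knockout TFR cells and below the limit in the other 3 arrays. Thus both genes that oppose interleukin-1 were higher in the TFR array of either genotype. Sostdc1, a secreted BMP and Wnt antagonist, was at 9.72, 7.02, 7.33 and 5.68, 6.49-fold higher in the knockout pair. Sh2d1a, the SLAM adaptor SAP that lets T cells adhere to B cells, was at 11.00 and 9.67 in the knockout pair, 2.51-fold higher. Icos, the costimulator needed for follicular helper cells, was at 10.25 and 9.47, a difference of 0.78, and Cd200 differed by 0.47.

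**Figure D2:**
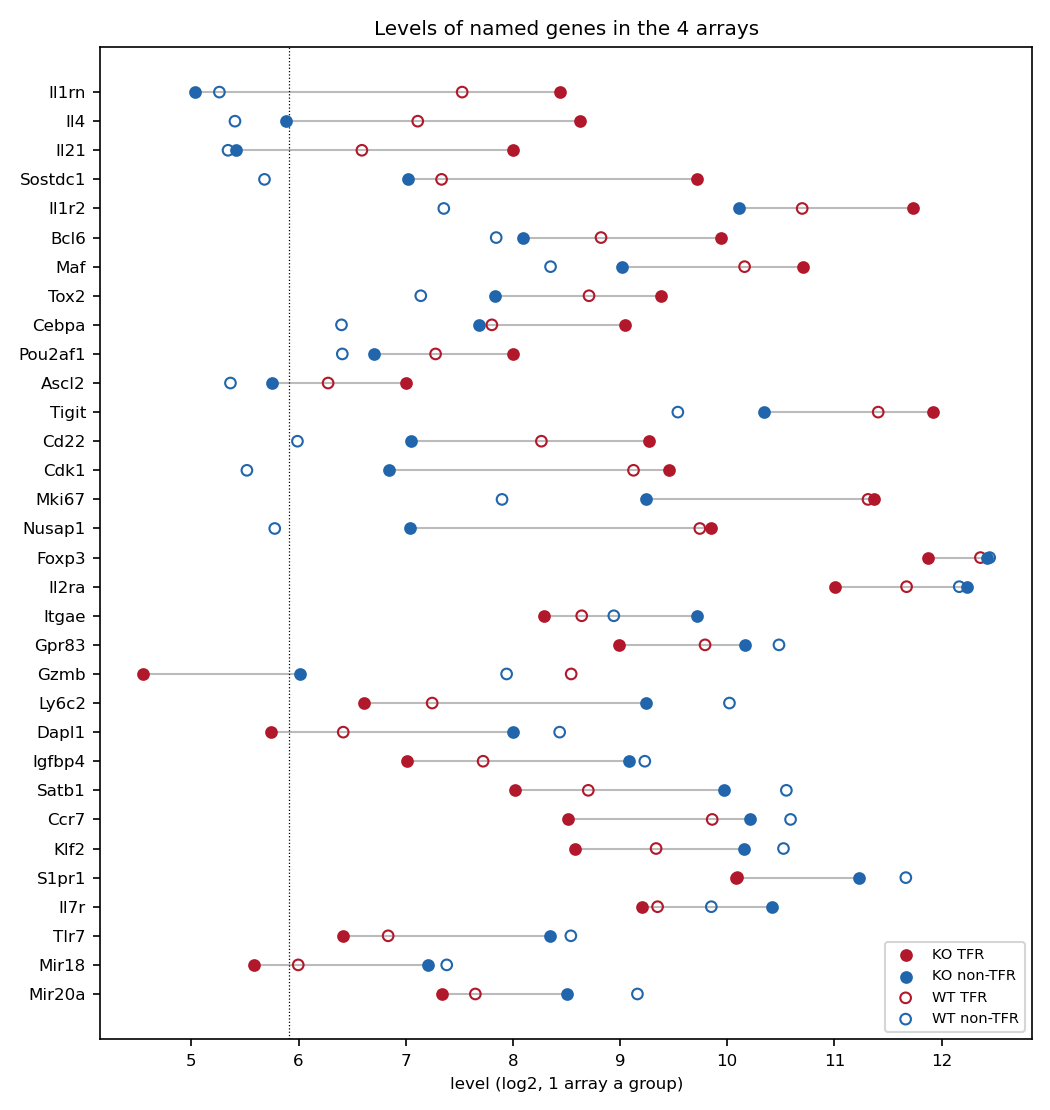
Each row is 1 gene and each point its log2 level in 1 array. Filled points are knockout and open points control arrays, red is TFR and blue non-TFR, the grey line joins the knockout pair, and the dotted line is the expression limit. Filled red points lie to the right of filled blue ones for the follicular and mitotic genes (Bcl6 9.94 against 8.10) and to the left for the naive T cell genes (Ly6c2 6.61 against 9.24).

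Genes of proliferation made up the largest block. Over all cell cycle lists, 216 of 236 measured genes were higher in knockout TFR cells, with a median of 0.93. Of the 236, 114 (48.3%, against 2.23% of all genes) were higher by 2-fold or more, while none was 2-fold lower. Medians were higher in the mitotic than in the replication lists. Of 27 genes of origin licensing and firing, 10 were higher by 2-fold or more (median 0.80), and so were 10 of 30 DNA polymerase and fork genes (0.76). Gins1, part of the replicative helicase, differed by 2.17 and Cdc45, its activating partner, by 2.10. Lig1, the ligase that seals Okazaki fragments, differed by 1.79. All 30 measured polymerase and fork genes were higher on the TFR side. Nucleotide synthesis was less apart, with 19 of 22 genes higher but 3 at least 2-fold and a median of 0.21. Its largest value was that of Rrm2, the regulated subunit of ribonucleotide reductase, at 1.41.

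The cyclins, CDKs and their regulators of S phase and mitosis had a median of 1.03, and 12 of 24 were higher by 2-fold or more. Cdk1, the kinase that starts mitosis, was at 9.45 in knockout TFR, 6.84 in knockout non-TFR, 9.13 in control TFR and 5.52 in control non-TFR cells, 6.10-fold higher in the knockout pair. Mki67, the common marker of cycling cells, was at 11.37, 9.24, 11.31 and 7.90, 4.37-fold higher. For both, the TFR arrays of the genotypes were close to each other and the knockout non-TFR array was above its control. The G1 regulators behaved otherwise. Of 17 genes for D cyclins, CDK4, CDK6 and CDK inhibitors, 9 were higher, 2 of them by 2-fold or more, with a median of 0.03 that turned to -0.03 under 75th percentile centring. Those with a 2-fold difference were Cdk6, at 10.33 and 9.22 in the knockout pair, and Cdkn2c, the CDK4 and CDK6 inhibitor p18, at a difference of 1.04. Cdkn1a and Cdkn1b, inhibitors that hold cells out of cycle, differed by -0.56 and -0.46.

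The mitotic lists had the highest medians. All 31 measured kinetochore and centromere genes were higher, 22 at least 2-fold, with a median of 1.73. Of 54 spindle, chromosomal passenger and cytokinesis genes, 52 were higher, 41 of them by 2-fold or more, and the median was 1.599. Nusap1, a spindle microtubule protein, was at 9.85 in knockout TFR and 7.04 in knockout non-TFR cells, 7.01-fold higher. Depdc1a was at 8.13 and 5.04, Mastl (the Greatwall kinase, which keeps a phosphatase off during mitosis) at 7.90 and 5.01, and Knl1, a kinetochore scaffold, at 8.50 and 5.88. The knockout non-TFR arrays of these last 3 lay below the expression limit. Homologous recombination and Fanconi genes, which repair broken forks, followed where 14 of 31 were apart by that much (median 0.81). Among them the helicase gene Brip1 was at 7.67 and 4.90, the latter below the limit.

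Promoter windows are shown for the 4 cell cycle genes with the largest differences among those whose window holds at least 1 of the forms marked below, because these genes were higher together. Nusap1, with a difference of 2.81, was passed over because none of these forms is in its window. The windows run from 250 bases before to 50 bases after the start in RefSeq on the GRCm38.p6 build, 300 bases in the direction of transcription. In the windows, capitals mark CCAAT (the CAAT box), TTTGAA (a form of the cell cycle homology region), and the E2F forms TTCCCGC and TTGGCGC, on either strand. The windows shown are chr3:159495183-159495482 on the plus strand for Depdc1a, chr2:23155975-23156274 on the minus strand for Mastl, chr11:86201144-86201443 on the minus strand for Brip1, chr2:119046869-119047168 on the plus strand for Knl1 and chr7:13279015-13279314 on the plus strand for Lig1. Lig1 was added after its values were seen, as the replication gene with the largest difference that holds an E2F form.
Depdc1a: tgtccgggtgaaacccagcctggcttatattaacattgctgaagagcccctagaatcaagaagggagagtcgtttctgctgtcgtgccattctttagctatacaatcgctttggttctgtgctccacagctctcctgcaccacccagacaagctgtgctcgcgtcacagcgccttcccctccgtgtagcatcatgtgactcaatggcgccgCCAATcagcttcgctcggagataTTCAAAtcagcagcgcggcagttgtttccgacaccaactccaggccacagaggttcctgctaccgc
Mastl: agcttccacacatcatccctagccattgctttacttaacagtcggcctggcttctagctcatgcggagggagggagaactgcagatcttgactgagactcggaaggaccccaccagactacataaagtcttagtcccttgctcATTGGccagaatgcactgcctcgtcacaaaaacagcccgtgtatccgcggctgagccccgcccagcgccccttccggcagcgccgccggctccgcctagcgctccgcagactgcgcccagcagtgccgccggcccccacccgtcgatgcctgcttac
Brip1: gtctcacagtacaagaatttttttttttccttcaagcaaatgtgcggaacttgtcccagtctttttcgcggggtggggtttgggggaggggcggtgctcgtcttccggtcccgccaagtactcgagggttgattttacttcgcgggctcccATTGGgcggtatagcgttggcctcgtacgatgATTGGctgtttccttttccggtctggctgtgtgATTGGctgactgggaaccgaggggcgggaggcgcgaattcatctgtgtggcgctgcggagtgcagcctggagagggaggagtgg
Knl1: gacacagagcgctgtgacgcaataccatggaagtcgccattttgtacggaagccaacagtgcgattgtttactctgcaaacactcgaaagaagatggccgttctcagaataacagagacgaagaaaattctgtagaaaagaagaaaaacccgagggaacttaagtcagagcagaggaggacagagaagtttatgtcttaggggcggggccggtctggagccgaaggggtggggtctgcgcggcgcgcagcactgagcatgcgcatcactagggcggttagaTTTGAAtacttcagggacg
Lig1: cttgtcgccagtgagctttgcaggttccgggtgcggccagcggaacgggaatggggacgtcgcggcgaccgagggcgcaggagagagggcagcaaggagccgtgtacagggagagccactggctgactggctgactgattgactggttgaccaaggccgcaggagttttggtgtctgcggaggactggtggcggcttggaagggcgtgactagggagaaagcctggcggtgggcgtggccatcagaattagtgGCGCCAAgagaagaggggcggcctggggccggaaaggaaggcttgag

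The Depdc1a window holds a CAAT box and a TTTGAA form, and the Brip1 window 3 CAAT boxes. The Mastl window holds 1 CAAT box, the Knl1 window 1 TTTGAA form and the Lig1 window 1 TTGGCGC form. Of 85 measured genes in the kinetochore and spindle lists, 71 had a window, and 63.4% of these windows held TTTGAA, against 17.8% of the windows of 16990 measured genes and 21.7% of those of 46 replication genes. TTTAAA, the other form searched, was in 18.3% of the mitotic, 10.9% of the replication and 13.5% of all windows. CCAAT was in 66.2% of the mitotic and 60.9% of the replication windows, against 41.6% of all. Either E2F form was in 56.5% of the replication windows, 21.1% of the mitotic ones and 1701 of all 16990. The share with TTTGAA was thus higher in the mitotic windows and the share with an E2F form higher in the replication windows. Base composition was not matched, and a match is not evidence of binding.

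**Figure D3:**
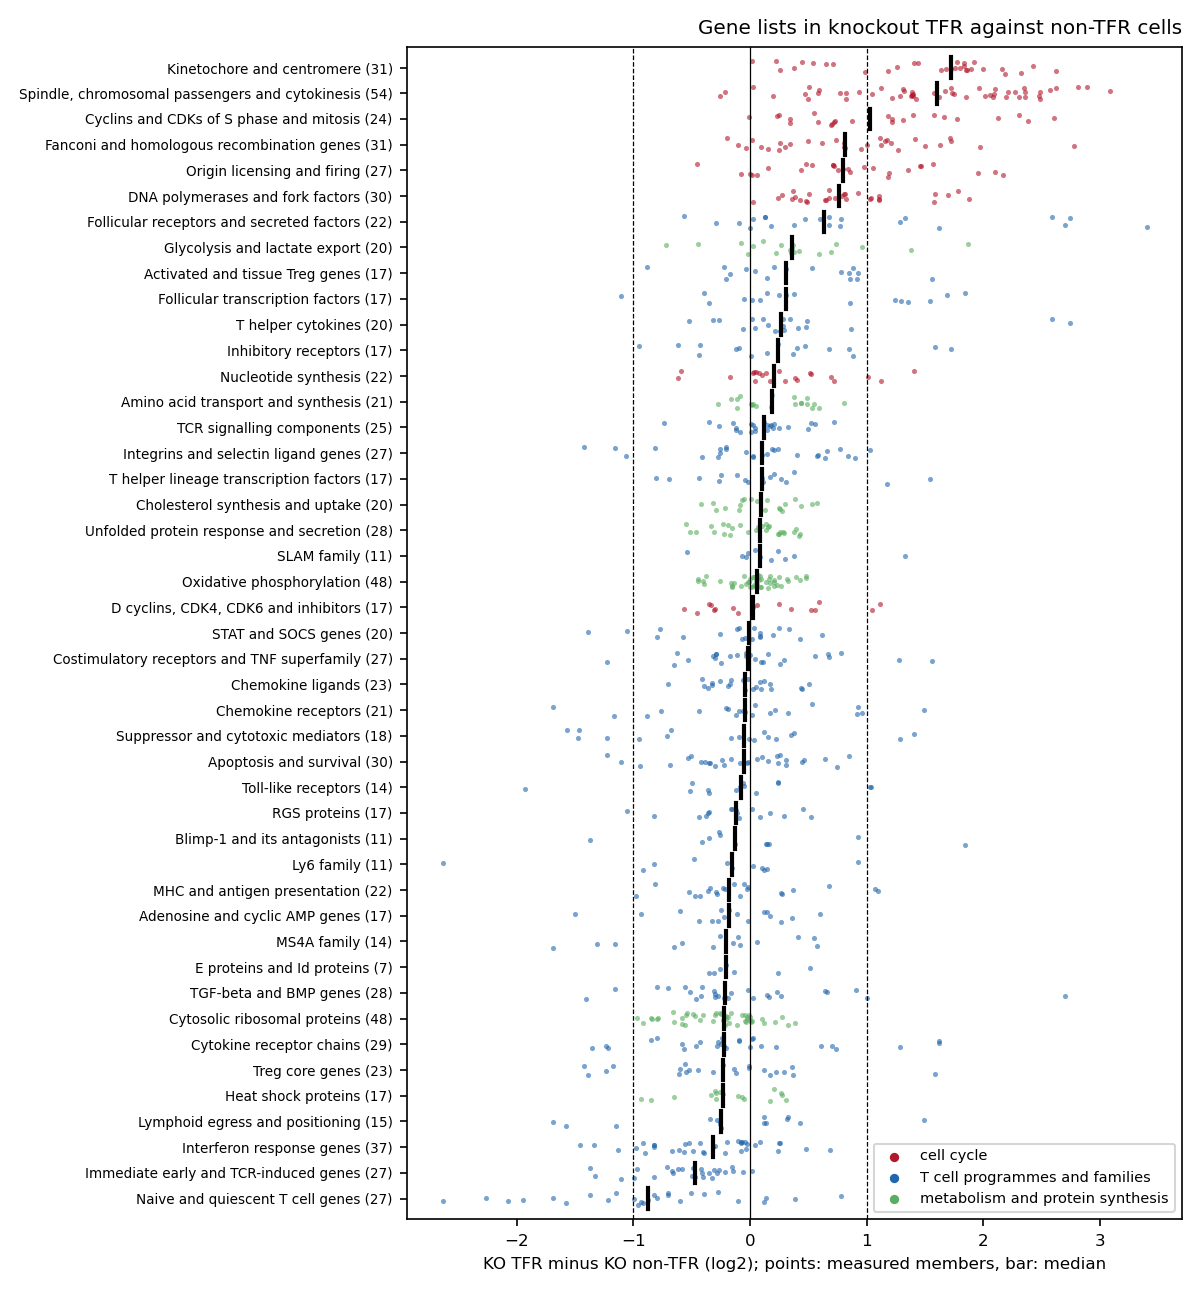
Each row is 1 gene list with its number of measured members, each point 1 member's KO TFR minus KO non-TFR difference (log2), and the black bar the list median. Dashed lines mark a 2-fold difference. The kinetochore list (1.73) and the spindle list (1.599) are at the top and the naive T cell list (-0.88) at the bottom.

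Core Treg genes leaned the other way. Of 23 measured, 16 were lower in knockout TFR cells, 4 of them by 2-fold or more (1.18% of all genes were), against 1 gene higher by that much. The list median was -0.23. Foxp3 was at 11.87 in knockout TFR, 12.42 in knockout non-TFR, 12.36 in control TFR and 12.45 in control non-TFR cells, 1.47-fold lower in the knockout pair. The knockout TFR array was the lowest of the 4. Il2ra, the alpha chain of the interleukin-2 receptor (CD25), was at 11.00, 12.24, 11.67 and 12.17, 2.35-fold lower. Itgae, the CD103 integrin that binds epithelial E-cadherin, was at 8.29, 9.72, 8.64 and 8.94, 2.69-fold lower. Gpr83, a receptor typical of Treg cells, was at 8.99, 10.17, 9.79 and 10.48, 2.26-fold lower. In these genes too the knockout TFR array was the lowest. Socs2, a feedback inhibitor of cytokine signalling, was at 6.75 and 8.14 in the knockout pair, 2.62-fold lower by its brightest probe, while its second probe gave -0.49. Tigit, an inhibitory receptor shared by effector Treg and follicular T cells, went against the list at 11.93 and 10.34, and differed by 1.59.

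Suppressor and cytotoxic mediators were divided, with 8 of 18 higher. By 2-fold or more, 2 were higher (11.1%, against 2.23% of all genes) and 4 lower (22.2%, against 1.18%). Their median of -0.05 turned to 0.09 on the deposited values. Gzmb, the killing protease granzyme B, was at 4.55 in knockout TFR, 6.01 in knockout non-TFR, 8.54 in control TFR and 7.94 in control non-TFR cells. Both knockout arrays were far below both control arrays, and the TFR array was the lower one only in the knockout, where it was below the expression limit. Gzmk, a tryptase-type granzyme, went the other way in the knockout pair at 6.88 and 5.48, the latter below the limit. Fasl, the ligand of the death receptor Fas, was at 6.59 and 7.82, 2.34-fold lower. Ctsw, a cathepsin of cytotoxic lymphocytes, was at 8.49 and 9.97, 2.78-fold lower, and Prf1, which encodes perforin, differed by -0.95. Il10, the suppressive cytokine, was at 6.70 in knockout TFR, 6.55 in knockout non-TFR, 9.03 in control TFR and 8.22 in control non-TFR cells. It was low in both knockout arrays and differed between them by 0.15.

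Genes of effector and tissue Treg cells were higher more often than lower (12 of 17), but only Tnfrsf8, which encodes CD30, passed 2-fold, at 10.003 and 8.44 in the knockout pair. The chemokine receptor genes Cxcr3, Cxcr6 and Ccr4 differed by 0.92, 0.96 and 0.92, and the inhibitory receptor gene Lag3 by 0.88. Each stayed short of 2-fold, and the knockout non-TFR level of Cxcr6 was below the limit. Ccr2 and Ccr9, with both knockout arrays below the limit, differed by -0.89 and -1.17. Over all 21 measured chemokine receptors 1 (4.76%, against 2.23% of all genes) was higher by 2-fold or more, Cxcr5, on which the cells were sorted. The 2 lower by as much (9.52%, against 1.18% of all genes) were Ccr7 and Ccr9. The list median of -0.05 was 0.07 on the deposited values. Of 17 inhibitory receptors measured, 2 (11.8%, against 2.23% of all genes) were higher by 2-fold or more, Tigit and Pdcd1. The cells were sorted on the product of Pdcd1. Among 27 costimulatory receptors and TNF family members measured, 2 were higher by 2-fold or more (7.41%, against 2.23% of all genes). These were Tnfrsf8 and Tnfsf13b, which encodes the B cell survival factor BAFF. Fasl was lower by 2-fold or more (3.7%, against 1.18%). Tnfsf13b differed by 1.28.

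The lowest group was the list for naive and resting T cells. Of 27 measured, 23 were lower in knockout TFR cells, 9 of them by 2-fold or more, against 1.18% of all genes. No member was 2-fold higher, and the median was -0.88. Ly6c2, a surface protein of resting and some effector T cells, was at 6.61 in knockout TFR, 9.24 in knockout non-TFR, 7.25 in control TFR and 10.02 in control non-TFR cells, 6.22-fold lower in the knockout pair. Its near-identical neighbour Ly6c1 differed by -0.82 from dimmer values, and how the probes divide these genes is uncertain. Dapl1 was at 5.74 and 8.004 in the knockout pair, with the TFR array under the expression limit. Igfbp4 was at 7.01 and 9.08, 4.21-fold lower, and Satb1, a chromatin organiser of developing and resting T cells, at 8.02 and 9.97, 3.86-fold lower. Bach2, a repressor that keeps T cells resting, was at 7.34 and 8.71, a difference of -1.37. Of the 4 genes that were higher, Atp1b1, a sodium pump subunit, differed most, by 0.78.

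The receptors that place T cells were among them. Ccr7, which holds cells in the T cell zone, was at 8.52 in knockout TFR, 10.21 in knockout non-TFR, 9.86 in control TFR and 10.59 in control non-TFR cells, 3.23-fold lower in the knockout pair and lowest in the knockout TFR array. S1pr1, the receptor for exit into lymph, was at 10.08 and 11.23, 2.22-fold lower, and Klf2, the factor that drives S1pr1, at 8.58 and 10.16, 2.98-fold lower. S1pr2 and Gpr183, which position cells in and around the follicle, differed by 0.43 and 0.14. Cd69, whose protein removes S1PR1 from the surface, differed by -0.28. Of 15 measured egress and positioning genes, 3 were therefore lower by 2-fold or more. The 1 higher by as much (6.67%, against 2.23%) was Cxcr5, on which the cells were sorted.

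Cytokine receptors and their signalling genes differed in both directions. Of 29 receptor chains, 3 (10.3%, against 2.23% of all genes) were higher by 2-fold or more, Il1r2, Il13ra1 and the dim Il1r1. Another 3 (10.3%, against 1.18%) were lower by as much, Ifngr1, Il2ra and Il7r, and the median was -0.22. Il13ra1, which pairs with the interleukin-4 receptor, was at 7.57 and 5.95 in the knockout pair. Il7r, the receptor for the survival cytokine interleukin-7, was at 9.21 in knockout TFR, 10.42 in knockout non-TFR, 9.35 in control TFR and 9.85 in control non-TFR cells. Ifngr1, the ligand-binding chain of the interferon-gamma receptor, was at 9.26, 10.62, 10.03 and 10.82, a knockout difference of -1.35. Of 20 STAT and SOCS genes, 2 were lower by 2-fold or more, Socs2 and Cish, and none higher. Cish, a STAT5 target that damps interleukin-2 signalling, was at 10.27 in knockout TFR, 11.32 in knockout non-TFR, 11.33 in control TFR and 11.29 in control non-TFR cells. Only the knockout TFR array was low. Its difference of -1.05 was -0.97 on the deposited values, and its second probe gave -0.78. Socs1 and Socs3 differed by -0.80 and -0.77.

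Genes induced by antigen receptor signalling were lower. Of 27 immediate early and TCR-induced genes, 26 were lower in knockout TFR cells, with a median of -0.48, and 3 (11.1%, against 1.18% of all genes) by 2-fold or more. The latter were Dusp5 (-1.37) and Dusp2 (-1.33), phosphatases that shut off ERK in the nucleus, and Nr4a1 (-1.11), the nuclear receptor used as a reporter of TCR signalling. Egr2, picked out here because it was the single gene not lower, differed by 0.01. The components of the TCR pathway itself were within 2-fold for all 25 genes measured.

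Helper lineage genes were mostly near 0. Of 17 T helper transcription factors 2 (11.8%, against 2.23% of all genes) were higher by 2-fold or more, Tox2 and Hif1a. Hif1a, the oxygen-regulated factor that drives glycolytic genes, was at 12.37 and 11.20 in the knockout pair, but its dimmer second probe gave -0.21 and the mean of its probes 0.48. Tbx21, the T helper 1 factor, differed by 0.11, and Gata3 by 0.20. Of 20 helper cytokines Il4 and Il21 alone were higher by 2-fold or more, and Ifng, the T helper 1 cytokine, differed by -0.32.

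In metabolism the differences were small. Of 20 glycolysis and lactate export genes 16 were higher, with a median of 0.36, and 2 by 2-fold or more. The latter were Aldoc, an aldolase, at 8.18 and 6.31, and Tpi1, triosephosphate isomerase, at a difference of 1.38. Pdk1, which keeps pyruvate out of mitochondria, differed by -0.72. No gene passed 2-fold among 48 of oxidative phosphorylation (median 0.06), 20 of cholesterol synthesis (0.10), 28 of the unfolded protein response (0.09) or 48 of the cytosolic ribosome (-0.22). Ndufb11, a complex I subunit gene that the oxidative phosphorylation list does not hold, was at 5.96 and 7.69, a difference of -1.74. Ribosomal protein genes were small in difference but lower in 39 of 48.

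Interferon response genes were lower more often than higher. Of 37 interferon response genes 30 were lower, with a median of -0.32, and 3 (8.11%, against 1.18% of all genes) by 2-fold or more. The latter were the GTPase genes Irgm2 (-1.46) and Iigp1 (-1.14) and the RNA sensor Oas2 (-1.33). Outside that list, Ifit1bl1, a relative of the interferon-induced Ifit genes, was at 7.20 in knockout TFR and 9.54 in knockout non-TFR cells, 5.04-fold lower. Of 14 Toll-like receptor genes and partners measured, 2 were higher by 2-fold or more (14.3%, against 2.23% of all genes). Lower by as much was 1 (7.14%, against 1.18%), and the median of -0.07 was 0.04 on the deposited values. Tlr7, for single-stranded RNA, was at 6.41 and 8.34 in the knockout pair, 3.81-fold lower, and Tlr9, for CpG DNA, differed by 1.03. Tlr3, for double-stranded RNA, differed by 1.02 between arrays below the limit, and Tlr8 and Tlr13, equally dim, by -0.05 and 0.05. Of 14 genes of the MS4A family of membrane proteins, 3 were lower by 2-fold or more (21.4%, against 1.18% of all genes), led by Ms4a4c (-1.69) and Ms4a4b (-1.31). TGF-beta and BMP genes held extremes in both directions. Sostdc1 is given above, while the inhibitors Bambi and Smad7 differed by -1.40 and -1.16. Of 28 genes in that list 2 were higher by 2-fold or more (7.14%, against 2.23% of all genes) and 2 lower by 2-fold or more (7.14%, against 1.18%). Acvr1, one of the former, differed by 1.00, barely 2-fold, and its mean level was below the expression limit.

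Of the 336 genes higher by 2-fold or more, 202 were in no list, and so were 118 of the 152 lower ones. Dnase1l3, a secreted DNase, was at 9.68 in knockout TFR, 6.65 in knockout non-TFR, 8.64 in control TFR and 5.66 in control non-TFR cells, 8.20-fold higher in the knockout pair. Sccpdh was at 9.02, 6.03, 7.77 and 5.23, 7.93-fold higher, and Krt17, a keratin, at 8.62, 6.19, 7.16 and 4.95, 5.37-fold higher. In all of these the knockout TFR array was the highest and the TFR array of either genotype was above its partner. On the lower side were Treml2 (-1.82), the glutathione transferase Gsta4 (-1.78), the ubiquitin ligase Rnf130 (-1.75), the sialyltransferase St8sia6 (-1.66), and the ubiquitin ligase Nedd4l (-1.58). These share no list.

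Histone genes, taken by symbol, numbered 31, 14 of them expressed. Of the 31, 9 were higher by 2-fold or more (29.0%, against 2.23% of all genes), and 6 of the 9 were expressed. Lower by 2-fold or more was 1 (3.23%, against 1.18% of all genes). Of those picked out after their values were seen, H1f5 differed by 3.47 but its mean level was below the expression limit, and H2bc3 was at 12.002 and 9.90. H1f2, another linker histone gene, differed by -1.16. Histone genes are near-identical in sequence, so the split of signal between them is uncertain.

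MicroRNA genes numbered 478, of which 110 were expressed. Of the 478, 16 were lower by 2-fold or more (3.35%, against 1.18% of all genes). Some of these 16, Mir17 among them, had a mean level below the expression limit. Another 6 were higher by 2-fold or more (1.26%, against 2.23% of all genes), and 2 of the 6 were expressed. Members of the Mir17 cluster, whose microRNAs restrain apoptosis and support follicular helper T cells, were chosen after their values were seen, because neighbours on chromosome 14 of GRCm38.p6 were lower together. The mature sequences from RefSeq are shown with the seed, bases 2 to 8, in capitals. The arrays read the hairpin genes, and mature microRNA was not measured.
mmu-miR-17-5p (Mir17): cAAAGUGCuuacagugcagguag
mmu-miR-18a-5p (Mir18): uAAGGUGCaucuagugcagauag
mmu-miR-19a-3p (Mir19a): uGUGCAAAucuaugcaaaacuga
mmu-miR-20a-5p (Mir20a): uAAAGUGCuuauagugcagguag

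The Mir17 and Mir20a products share a seed, which differs from those of Mir18 and Mir19a. Mir17 was at 4.93 in knockout TFR and 5.94 in knockout non-TFR cells, around the limit. Mir18 was at 5.59, 7.21, 5.996 and 7.38 in knockout TFR, knockout non-TFR, control TFR and control non-TFR cells. Mir19a was at 5.89, 6.96, 6.05 and 7.96 in the same order. Mir20a was at 7.34, 8.51, 7.65 and 9.16, 2.25-fold lower in the knockout pair. In each of these the knockout TFR array was the lowest and the TFR array lay below its partner in both genotypes. Mir19b-1 and Mir92-1, the remaining hairpins of the cluster, were not read by a probe with 1 gene.

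In both knockout arrays, markers of other cell types were mostly below the expression limit for B cells, macrophages, dendritic cells, neutrophils and NK cells, and mostly above it for germinal centre B cells and plasma cells. Of 12 B cell markers 5 were above the expression limit in knockout TFR cells and 3 in each other array, and their summed log2 level was 68.5 in knockout TFR, 66.1 in knockout non-TFR, 67.3 in control TFR and 64.2 in control non-TFR cells. Ms4a1 (CD20) was at most 4.12 and Cd79a at most 5.69, below the limit in all 4 arrays. Of the 12, 6 were higher and 6 lower on the knockout TFR side, with Pax5 differing by 0.92, Blk by 0.67 and Bank1 by -0.88. Of 22 MHC and antigen presentation genes, 16 were lower, with a median of -0.18. H2-DMb2 (1.10) and H2-Eb1 (1.07) were higher by 2-fold or more (9.09%, against 2.23% of all genes). Cd22, a B cell inhibitory lectin, was at 9.27 in knockout TFR, 7.04 in knockout non-TFR, 8.27 in control TFR and 5.99 in control non-TFR cells, 4.67-fold higher in the knockout pair. Of 14 macrophage markers at most 2 were above the limit in any array, with summed levels from 70.9 to 73.2. Cd68, a lysosomal protein of macrophages, was at 9.17 and 7.59 in the knockout pair. Germinal centre B cell markers above the limit numbered 7 of 11 in both knockout arrays, and plasma cell markers 7 of 10 in knockout TFR and 6 in knockout non-TFR cells. The germinal centre list holds Bcl6, Fas and S1pr2, and the plasma cell list Irf4 and Slamf7, all also members of T cell lists used here. Those shared members are not specific to B lineage cells, while both lists also hold members that no T cell list does. At most 2 of 9 dendritic cell, 1 of 11 neutrophil, 2 of 7 NK cell, 4 of 7 CD8 T cell, 1 of 3 erythroid and platelet and 5 of 12 stromal markers were above the limit in any array. The part of other cells in the differences was not tested.

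The control pair gives the same contrast with Prdm1 intact. Of the 336 genes higher by 2-fold or more in knockout TFR cells, 258 were also higher by 2-fold or more in control TFR cells. Of the 152 lower genes 78 were also lower by 2-fold or more there. The control pair had 458 such higher and 151 such lower genes among the 11090 expressed, so the shared genes are 258 of 458 and 78 of 151 of its lists. The control difference was below 0 for 3 of the 336 and above 0 for 2 of the 152. With 1 array a group none of these differences between genotypes was tested.

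The pairs differed in which genes were further apart. The knockout difference was below the control one for 5806 of the 11090 expressed genes. It was so for 168 of 219 expressed cell cycle genes, with medians over all 236 measured of 0.93 and 1.14. Prr11, a gene of mitotic cells, was at 9.39 in knockout TFR, 7.30 in knockout non-TFR, 9.31 in control TFR and 5.07 in control non-TFR cells, with the main gap between the non-TFR arrays. Core Treg genes had a median of -0.23 in the knockout and 0.19 in the control pair, and 21 of 23 had a lower difference in the knockout. Effector and tissue Treg genes had medians of 0.31 and 0.84, with all 17 lower in the knockout difference. Follicular transcription factors had medians of 0.31 and 0.73, while Bcl6 differed by 1.84 and 0.98. The expressed genes whose knockout difference most exceeded the control one were Atp1b1, Ctsl (cathepsin L), Speer4a, Il21, Serinc5, Chil5, Lgmn, Gal, Il1rn and Arnt2. Serinc5, a membrane protein, was at 10.50, 8.35, 9.56 and 8.64, and Gal, the neuropeptide galanin, at 7.96, 5.996, 6.69 and 5.88. Those furthest the other way were Prr11, Dscam, Gzmb, C2cd4b, Il1r2, Ccna2, Ctla2a, Xcl1, Btbd16 and Nrn1. Some of these gaps, such as those of Il21, Il1rn, Gzmb and Prr11, rest on an array below the limit. Il1r2 differed by 1.62 in the knockout and 3.34 in the control pair, and its knockout non-TFR array was at 10.11 against 7.35 in the control.

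**Figure D4:**
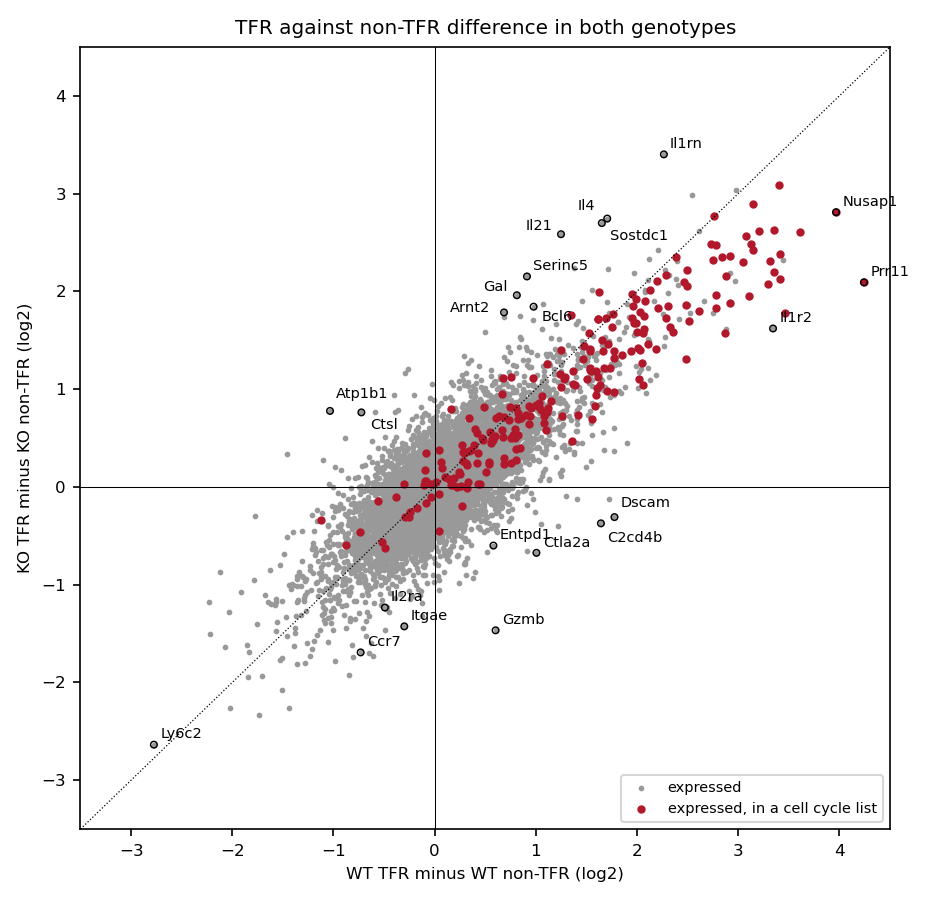
Each point is 1 expressed gene, with the WT TFR minus WT non-TFR difference (log2) on the horizontal axis and the KO TFR minus KO non-TFR difference (log2) on the vertical axis; red points are cell cycle genes and the dotted diagonal marks equal differences. Serinc5 (2.15 against 0.91) and Atp1b1 (0.78 against -1.03) lie above the diagonal, while Il1r2 (1.62 against 3.34) and most cell cycle genes (168 of 219) lie below it.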

How the data were processed

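RNA from 4 sorted samples, 1 array per group, was measured, per the labels, as biotin-labelled cRNA on the Affymetrix Mouse Gene 2.0 ST platform. The submitters' processing notes name MAS5. The authors deposited 1 value per probe, read here as log2 from their range of 2.23 to 13.8; how they were summarised is not given in the sources used here. Deposited array medians were 5.58 to 5.69. An array's precision cannot be judged from 1 array a group.

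The 4 arrays were quantile normalized with limma 3.58.1 (R 4.3.3). Of 41345 probes, 23521 carried 1 gene symbol, 1814 several and 16010 none in the annotation table used. Of the 23521, 23328 were matched by Entrez identifier, and no symbol changed. The brightest probe over the 4 arrays stood for each of the 1082 genes with several. Counts use 2-fold (1 in log2). The calculation was checked on simulated data.

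Named genes were the 20 expressed genes furthest apart in each direction, up to 6 members per list (any member in lists of at most 20 measured), the sort's genes, and the 10 with the largest gap between genotypes each way. Members, lists and tests were chosen with earlier results of these data known. Promoter and microRNA sequences came from RefSeq, GRCm38.p6.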

Additional observations from a re-analysis of the deposited data

Results flagged for a closer look

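Several values had opposite signs in the knockout and the control pair. The difference between the genotypes was not tested, since each group is 1 array. Among gene lists, the Blimp-1 list and its antagonists had a median of -0.13 in the knockout and 0.41 in the control pair. Core Treg genes had -0.23 and 0.19. NK cell markers, of which 1 of 7 was expressed, had 0.17 and -0.11, and the 3 erythroid and platelet markers -0.11 and 0.33.

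Among genes, Gzmb differed by -1.47 in the knockout and 0.60 in the control pair. Its knockout TFR level of 4.55 was below the expression limit, so the size of the knockout difference is uncertain. Entpd1, the ectonucleotidase CD39 with which Treg cells make adenosine precursors, differed by -0.60 and 0.58. Ctla2a, a cathepsin inhibitor gene, differed by -0.67 and 1.01, and Ctsl, a cathepsin gene, by 0.76 and -0.72. Atp1b1 differed by 0.78 and -1.03, and Btbd16, whose control non-TFR level of 5.88 was just below the limit, by -0.66 and 0.91. All of these genes except Entpd1 were among the 10 with the largest gap between the pairs in either direction. Their opposite signs are thus partly owed to that choice.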

How the results depend on the processing

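The 8 alternatives to the processing changed the sign of none of the 138 named genes that were at least 2-fold apart. Of these, 122 stayed at least 2-fold apart under every one. The filters on dim genes change which genes are kept and not a gene's difference, and many of these genes were named for large differences. Their unchanged signs are therefore no independent support. The main counts were 336 higher (3.03%) and 152 lower (1.37%) of 11090 genes. When only genes above the 75th percentile of expression were kept, they were 84 and 73. Without a filter on dim genes they were 494 (2.23%) and 262 (1.18%) of 22180. Each of these settings keeps a different number of genes, so the counts alone do not show how the shares moved. The split moved most on the deposited values, at 443 higher and 103 lower (81.1% higher), and with the stricter filter (53.5% higher), against 68.9%. The median of the Blimp-1 list turned to 0.14 with the mean of all probes of a gene. List medians within 0.1 of 0, among them those of the chemokine receptors and the suppressor mediators, changed sign under some settings. No paired analysis was possible because each group is 1 array and the labels carry no replicate numbers. No replicate could be left out. No fold is given below 5.91, which is the median of the genes' mean levels. How far that limit lies above background was not examined.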
